A study of Mus musculus with 18 samples.

Results

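CpG methylation was compared at day 9 between embryonic stem cells with Dnmt1 deleted and control cells, using the 2 Dnmt1 KO and the 2 control libraries that the labels place at this day, 4 of the 18 libraries of the series. The series follows both genotypes through days 1, 3, 6, 9 and 11 by whole-genome bisulfite sequencing, in which unmethylated cytosines are converted, so that a read covering a CpG counts it once, as a methylated or an unmethylated call. The question of this comparison is how much methylation was left once the loss had levelled off, and where in the genome more or less of it was kept.

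All 4 libraries are labelled as mouse embryonic stem cells (ESC) with the background E14 at day 9. The control libraries carry the genotype Wildtype and the other pair the genotype Dnmt1 KO. The methods describe Dnmt1 loxP/loxP cells of another strain, C57BL/6, grown in serum with LIF, in which tamoxifen-activated Cre removes the floxed part of the gene. Whether the control cells were untreated cells of that line is not given in the sources used here, so a difference between genotypes and a difference between lines cannot be told apart. A single cell line per genotype also limits what the comparison says of embryonic cells in general, and p-values measure the spread between libraries of the same line.

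Dnmt1 copies methylation onto the new strand after DNA replication, acting on CpGs that carry methylation on the parental strand only. Without it, methylation is diluted with each division, and it can be written anew by Dnmt3a and Dnmt3b, which act on unmethylated CpGs and are active in embryonic stem cells. The pattern that remains can therefore differ from a plain dilution of the starting one.

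The libraries held 7190722 to 10142985 calls, on average 1.2 to 1.24 calls per covered cytosine, and 0.783% to 1.28% of the covered cytosines had 3 or more calls. Single CpGs were therefore not compared. The mitochondrial genome, a measure of unconverted cytosines, had 0.376% to 0.467% methylated calls. Exons 4 and 5 of Dnmt1 on chromosome 9, with the intron between them, had 6 and 3 calls in control and 0 in both Dnmt1 KO libraries, against 259 to 417 calls in the rest of the gene in each of the 4 libraries. This span was chosen with earlier results of these data known, so the count of 0 is not an independent check of the labels. A count of 0 allowed up to 0.890% and 1.16% of the Dnmt1 calls of the Dnmt1 KO libraries to lie there, counting error only. The control shares were 1.42% and 0.987%, on counts too low for a single Dnmt1 KO library to be told apart from control here. As a check of the cell type, the starts of the stem cell marker genes (Pou5f1, Nanog and others, 2 kb around the start) had 12.2% and 10.4% methylated calls in control. Starts of 8 fibroblast markers, which feeder cells would carry, had 35.2% and 14.7%. Starts of 3 trophoblast markers had 9.48% and 10.6%, as low as the stem cell set, so these levels do not tell cell types apart. Members also differed, Esrrb of the stem cell set having 45.8% and 80% and Fn1 of the fibroblast set 0% and 1.61%. Methylation at a start does not measure expression, and feeder cells were not looked for in any other way.

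On the autosomes, 77.7% and 76.0% of calls were methylated in control against 24.5% and 25.6% in Dnmt1 KO. The means were 76.8% ± 1.22 and 25.1% ± 0.745 (SD, n = 2 each), a difference of -51.8 percentage points, and the genotypes did not overlap. Dnmt1 KO cells thus held 32.6% of the control level, which is called the kept share here (the Dnmt1 KO level divided by the control level). The kept share was 31.6% and 33.7% in the 2 pairs of libraries with the same number. An exact permutation test of 2 libraries against 2 cannot go below a two-sided p of 0.333 and was not used. The other days of the series gave kept shares of 92.1% (day 1), 45.0% (day 3), 30.6% (day 6, single libraries) and 34.3% (day 11). Control was at 79.0% at day 6 and 71.4% at day 11, and Dnmt1 KO at 24.2% and 24.5%. The higher kept share of day 11 thus went with a lower control level and not with a clear gain in Dnmt1 KO. A small set of 1254 cytosines with over 20 calls in a library, which held 7.51% of the autosomal calls of day 9, raised the value, and without them the kept share was 31.5%.

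Nearly every stretch of the genome that could be tested had lost methylation. Of 23885 tiles of 100 kb, 23884 were lower in Dnmt1 KO by at least 10 percentage points at an adjusted p under 0.05 in a quasi-binomial model (100% after rounding), with a median difference of -55.2 points. Of 202866 tiles of 10 kb, 199944 were lower (98.6%) and 0 were higher. At an unadjusted p under 0.05, 200022 tiles of 10 kb passed in either direction. The loss itself therefore did not distinguish regions, and what follows describes how the remainder was spread.

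The remainder was uneven over long stretches. Across 23299 autosomal tiles of 100 kb that were at least 50% methylated in control at the earlier days, the kept share had a median of 29.9% and a range of 15.3% to 42.1% between the 5th and 95th percentiles. To test a tile, its ratio of Dnmt1 KO to control was set against the same ratio of all autosomes (log2 ratio, 0 at the autosomal kept share). The median tile lay at -0.13 on this scale. Of 23726 tiles, those of the X included, 1779 were above the autosomal kept share (7.5%) and 5629 below it (23.7%) at an adjusted p under 0.05. When each library was scaled to its median tile instead, 4920 were above and 2881 below, and with the minimum of calls doubled 1035 were above and 410 below, so the balance of the directions depends on the reference and on which tiles are tested. Without Dnmt1 KO replicate 1 the counts were 331 and 1188, and without Dnmt1 KO replicate 2 they were 716 and 2124. At day 11, 1734 of the 1775 autosomal tiles above and 5547 of the 5603 below lay on the same side. The day 11 libraries entered these calls only through the shared estimate of the spread. Over all autosomal tiles the log2 ratios of the days correlated at rho 0.85, and the share on the same side was not counted.

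The tile with the highest kept share, chr3:27300001-27400000 (NCBIM37, as all coordinates here), lies mostly within Fndc3b, which encodes a fibronectin type III domain protein. Its levels were 90.0% and 83.3% in control and 45.4% and 49.9% in Dnmt1 KO, from 423 to 606 calls per library. This amounts to a kept share of 55.0%, a log2 ratio of 0.75 (SE 0.08). The next tiles lie inside Prkce on chromosome 17 (a protein kinase C) with 54.2% kept and Igf1r on chromosome 7 (the receptor of insulin-like growth factor 1) with 54.1% kept, both covered by gene over their whole length. They were followed by a tile in Tcerg1l with 53.3% and one at Prima1 (the membrane anchor of acetylcholinesterase) with 53.0%. The last pair lost significance without Dnmt1 KO replicate 1 (adjusted p = 0.087 and 0.0648). Even in these 5 tiles the highest Dnmt1 KO library, 51.6% at Prkce, stayed below the lowest control library, 66.9% at Tcerg1l.

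The lowest tile, chr17:38800001-38900000, holds no protein-coding gene and lies 17406 bp from Gm20516. Its levels were 79.9% and 75.8% in control and 5.26% and 3.60% in Dnmt1 KO, so that 5.69% was kept (log2 ratio -2.51, SE 0.51). The 5 lowest tiles held 109 to 182 calls per library, near the minimum of 100, and none was tested with that minimum doubled. A pair of the 5 lowest tiles overlap genes of pheromone receptors of the vomeronasal organ, Vmn2r105 on chromosome 17 with 6.84% kept and Vmn2r70 on chromosome 7 with 7.31% kept. At Vmn2r70 the levels were 79.1% and 79.2% in control and 2.54% and 9.03% in Dnmt1 KO. The remaining tiles lie at A230006K03Rik on chromosome 7 (7.15%) and in a gene-free stretch of chromosome 17 whose closest protein-coding gene, Gm16391, is 315800 bp away (7.26%). Control levels in these tiles, between 71.2% and 83.1%, lie among those of the tiles that kept most. At day 11 the 5 lowest tiles kept 8.32% to 18.3% and the 5 highest 44.1% to 50.3%.

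The kept share of a tile went with its base composition and not with how methylated it had been. Over the 23299 autosomal tiles, Spearman's rho of the log2 ratio was 0.72 with GC content, 0.74 with the number of CpGs, 0.34 with the share of the tile covered by genes, 0.36 with exon cover, 0.19 with calls per CpG and -0.03 with the control level of days 1, 3 and 6. These are descriptions over neighbouring tiles of the same libraries. A tile resembled the next one (rho 0.73) and still the one 10 tiles further (0.41), but not the one 100 tiles further (-0.003). Tiles were also split by GC into 5 groups of like size. In the group with the least GC, 32.9% to 38.3%, the median kept share was 18.9%, with 72.6% of tiles below the autosomal value and 0.0215% above. In the group with the most GC the median was 35.3%, with 1.16% below and 17.6% above. The group just under it had a median of 35.0%, so the values levelled off in the upper part of the range.

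**Figure D1:**
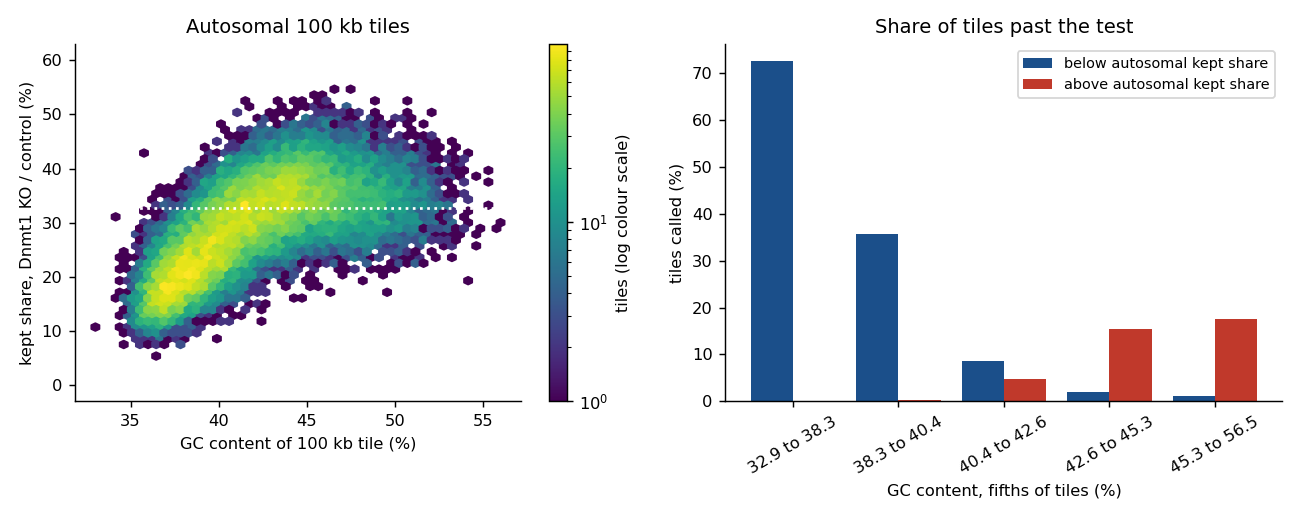
Left, GC content of autosomal 100 kb tiles (%) against their kept share (Dnmt1 KO level over control level, %), coloured by the number of tiles on a log scale, with the autosomal kept share of 32.6% dotted. Right, percent of tiles in each of 5 GC groups called below (blue) or above (red) the autosomal kept share: 72.6% of the tiles in the lowest group were below, and 17.6% in the highest were above.

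Tiles of 10 kb had too few calls for the same resolution. Of 192610 tiles, 386 were above the autosomal kept share (0.2%) and 67 below (0.0348%), and without Dnmt1 KO replicate 1 these counts were 14 and 3, without Dnmt1 KO replicate 2 they were 27 and 4. Other settings moved them widely, to 3428 above when scaled to the median and to 8386 below with limma on log2 levels. The values of pairs of libraries with the same number correlated at rho 0.28, against 0.74 for 100 kb tiles. Only 8 autosomal tiles had a Dnmt1 KO level at or above control. Of the tiles called above, the highest, in Rgnef on chromosome 13, had 40.3% and 46.6% in control and 27.5% and 65.0% in Dnmt1 KO. It kept 22.1% at day 11, on the other side of the autosomal value but within 2 SE of it. The tile in Vti1a, with 97.0% kept, had 43.8% and 100% in Dnmt1 KO, the latter from 10 calls, and the tile 14318 bp from E030025P04Rik kept 96.7% on 13 to 32 calls. Those 3 tiles kept 22.1% to 48.7% at day 11. Without Dnmt1 KO replicate 2 all 3 lost significance, and without replicate 1 the latter pair did. The 3 lowest hold no protein-coding gene and are named by the nearest, 2810055G20Rik (79504 bp away), Gm20516 (617406 bp) and Pik3c3 (892401 bp). They had 0 methylated calls among 37 to 55 calls in the Dnmt1 KO libraries together, which allows levels of up to 5.45% to 8.11%. Control levels there were 61.9% to 94.1%. All 3 lost significance when either Dnmt1 KO library was left out, and at day 11 they kept 10.4%, 8.55% and 26.0%.

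By limma, 26 of 74 sequence classes, 35.1%, were above the autosomal kept share and 35, or 47.3%, below it, and without the cytosines of over 20 calls 35 were above and 27 below. Among them the kept share was lower where CpGs lay further apart. CpGs with a neighbour within 2 to 5 bp kept 39.0%, and the share was 36.9% at 6 to 10 bp and 38.4% at 11 to 20 bp. It then fell with each step, to 32.0% at 21 to 50 bp, 28.2% at 51 to 100 bp, 27.6% beyond 100 and up to 200 bp, and 22.3% from there to 500 bp. Isolated CpGs, with no other within 500 bp, had 79.5% and 77.0% in control and 12.9% and 14.0% in Dnmt1 KO, a kept share of 17.1% (log2 ratio -0.93, adjusted p = 3.15e-10 in limma). Control levels differed little beyond a spacing of 10 bp, between 77.0% and 81.8%, so that the order in Dnmt1 KO was not present in control. Without the cytosines of over 20 calls, the share at 11 to 20 bp was 35.3%, and the call at 21 to 50 bp was lost (31.4%, adjusted p = 0.352), the other 7 distances remaining called on their side.

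**Figure D2:**
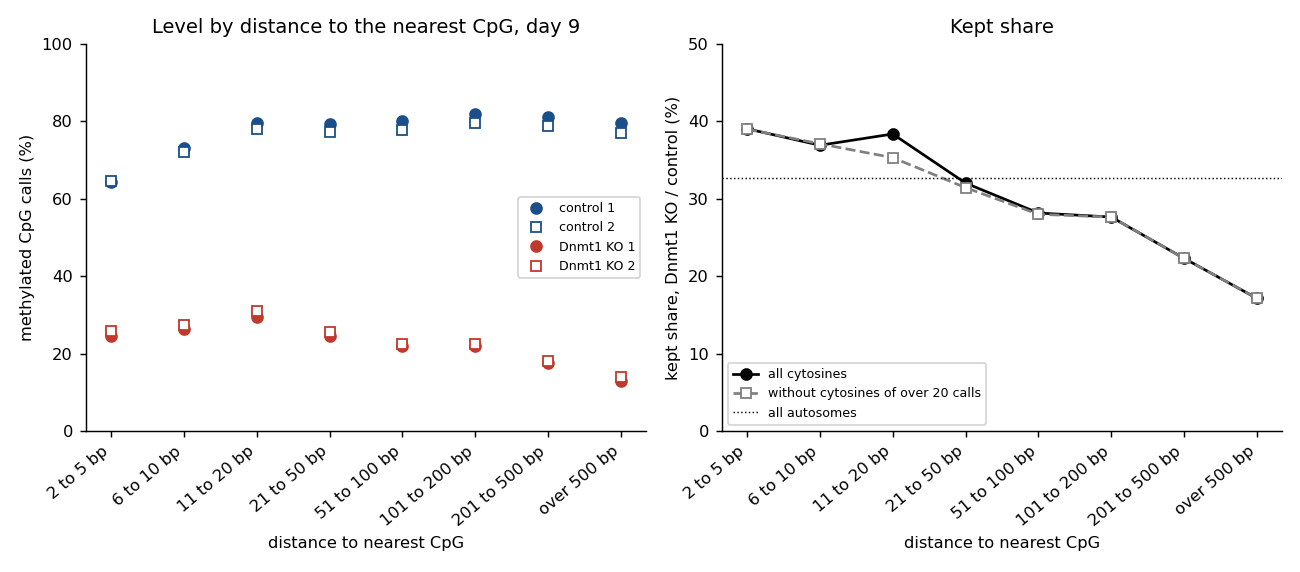
Left, methylated CpG calls (%) in the 4 libraries of day 9 by distance to the nearest other CpG; right, the kept share (%) with all cytosines, without the cytosines of over 20 calls, and for all autosomes (dotted). Control stays between 64.3% and 81.8% while the kept share falls from 39.0% at 2 to 5 bp to 17.1% beyond 500 bp.

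Counted by density, CpGs in sparse sequence (under 10 CpGs within 250 bp on either side) kept 30.3% and those in intermediate sequence (10 to 24) 39.7%. Dense sequence (25 or more, which takes in most CpG islands) was low in both genotypes, 8.37% and 8.98% in control and 3.39% and 3.84% in Dnmt1 KO, and kept 41.7%. Unconverted cytosines, at 0.376% to 0.467% of calls, weigh more on such low levels than elsewhere.

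By gene feature, intergenic CpGs kept 29.4%, introns 33.8%, promoters (1 kb upstream of a start) 37.0%, first exons 39.7% and other coding exons 40.8%. Part of this order rested on the 1254 cytosines of many calls, without which promoters kept 33.2%, first exons 34.1% and other coding exons 35.3%, while introns (33.5%) and intergenic sequence (29.2%) stayed nearly where they were. The promoter call was then lost (adjusted p = 0.0708). In sparse sequence alone, first exons kept 35.7% (30.3% without the cytosines of many calls, then on the other side of the autosomal value), other coding exons 34.7%, introns 32.4%, promoters 31.7% and intergenic CpGs 28.1%. Spacing of CpGs within sparse sequence was not matched between these features, and the differences between features were not tested. CpGs over 200 kb from any start kept 24.5%. Those under 500 bp from a start kept 43.4%, or 34.6% without the cytosines of many calls, and those between 500 bp and 2 kb went from 35.6% to 31.3%, which ended the call (adjusted p = 0.119).

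The autosomes lay close together once the same cytosines were left out, between 29.9% and 32.8%. With them, chromosomes 2 and 9 stood at 37.1% and 37.2%, and without them at 31.5% and 32.8%. The X chromosome kept less than any autosome, with 77.8% and 75.9% in control and 19.3% and 20.4% in Dnmt1 KO, a kept share of 25.8% (log2 ratio -0.34). The limma adjusted p was 1.79e-10. Of its 100 kb tiles only the 427 that passed the filters were tested, so they do not stand for the whole chromosome. Among these, 26 were below the autosomal value (6.09%, against 23.7% of all tiles) and 4 above, with a median of 29.2% kept. Over all 74 classes, 9 of the 61 called ones changed side without the cytosines of over 20 calls and 7 of these were called on the other side, chromosome 2 not among the latter.

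The bases next to the CpG went with the kept share as well, and did so differently on the strands of the same CpG. De novo methyltransferases are known to prefer some flanking bases over others. A context is read here 5′ to 3′ on the strand of the called cytosine, with N for any base. Among the 16 NCGN contexts, 8 were above the autosomal kept share (50%) and 7 below (43.8%), from 28.0% kept at GCGT to 38.6% at CCGC. Among the NNCGNN contexts, 108 were above (42.2%) and 120 below (46.9%). Of those 228 called contexts, 225 lay on the same side at day 11 and 11 changed side without the cytosines of over 20 calls.

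The 4 contexts that kept most are shown with C as the called base in the middle.
CTCGCC: 80.3% and 78.9% in control, 42.9% and 44.9% in Dnmt1 KO, 55.2% kept.
TACGGC: 84.5% and 82.0% in control, 45.1% and 45.8% in Dnmt1 KO, 54.6% kept.
TACGCG: 77.3% and 76.4% in control, 40.2% and 41.4% in Dnmt1 KO, 53.1% kept.
TCCGGC: 76.7% and 75.4% in control, 38.8% and 39.8% in Dnmt1 KO, 51.7% kept.
All 4 have a C among the 2 bases after the CpG, and CTCGCC alone of them depended on the cytosines of many calls, with 43.6% kept without them.

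The 4 contexts that kept least had control levels between 60.3% and 77.5%, against 75.4% to 84.5% above, and in 2 of them both control libraries lay below that range.
ATCGTT: 75.8% and 74.1% in control, 13.6% and 13.6% in Dnmt1 KO, 18.2% kept.
AACGTT: 68.3% and 66.4% in control, 11.9% and 12.8% in Dnmt1 KO, 18.3% kept.
ATCGTG: 77.5% and 75.6% in control, 13.7% and 14.4% in Dnmt1 KO, 18.3% kept.
GGCGGG: 60.8% and 60.3% in control, 11.4% and 12.4% in Dnmt1 KO, 19.7% kept.
A T follows the CpG in 3 of the 4 and a G in the other, and none has a C after the CpG. Each of the 8 contexts kept its side of the autosomal value at day 11. In sparse sequence alone, without the cytosines of many calls, each lay on the same side of the kept share of sparse sequence.

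A context and its reverse complement are the opposite strands of the same CpGs, so their position, density and number in the genome are shared. In 113 of 120 such NNCGNN pairs the kept share differed between the strands (94.2%) at an adjusted p under 0.05 in limma, and in 6 of 6 NCGN pairs (100%). The difference exceeded 5 percentage points in 78 pairs and 10 points in 43, with a median of 7.59 points. Control levels of the strands differed by a median of 0.764 points and at most 4.85. In 111 of the 113 pairs the same strand was higher at day 11.

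In the 3 pairs with the widest log2 differences the strand that kept more had CC after the CpG, and thus the other strand had GG before it. CCCGCC kept 42.5% and its other strand GGCGGG 19.7%. In Dnmt1 KO their levels were 27.5% and 28.1% against 11.4% and 12.4%, and in control 65.5% and 65.4% against 60.8% and 60.3% (log2 difference between the strands, relative to control, 1.11, SE 0.02). CACGCC kept 42.8% and GGCGTG 20.2% (1.09, SE 0.02), and TCCGCC kept 46.6% and GGCGGA 23.3% (SE of the log2 difference 0.01). At day 11 the log2 differences of the first and second pair were 1.28 and 1.23. Restricted to sparse sequence without the cytosines of many calls, a setting chosen after the data were seen, the first was 1.14. With 1 base on either side the differences were smaller, 38.6% at CCGC against 28.7% at GCGG (log2 difference 0.42) being the widest, followed by 36.9% at ACGC against 28.0% at GCGT (0.40).

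**Figure D3:**
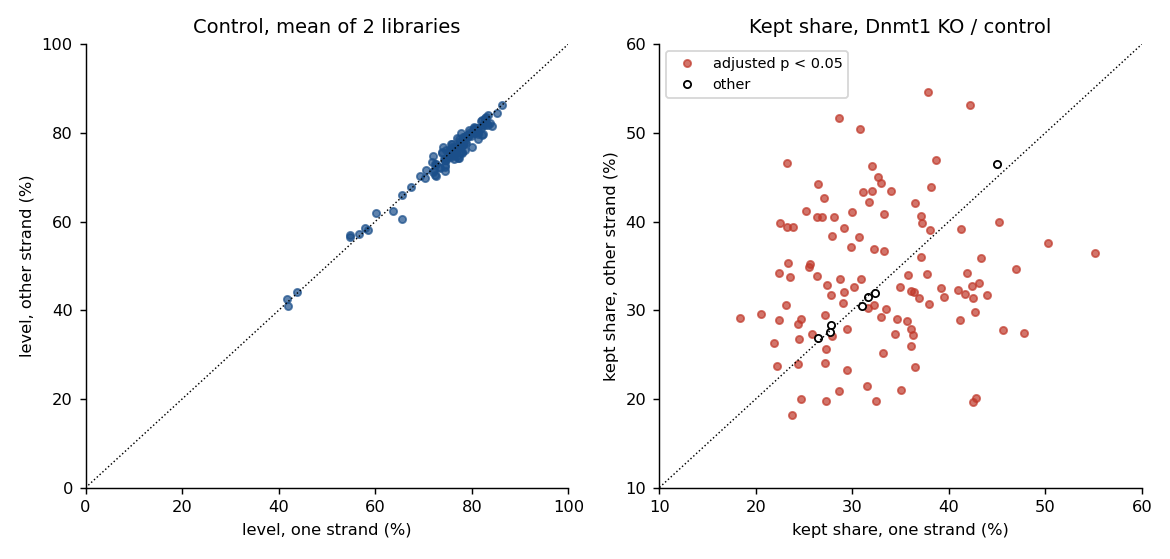
Each point is 1 of the 120 pairs of NNCGNN contexts that are the opposite strands of the same CpGs. Left, control levels of the strands (%, mean of 2 libraries), which differ by at most 4.85 points and follow the diagonal; right, kept shares of the strands (%), which scatter widely about it, red where they differ at an adjusted p under 0.05 (113 pairs).

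The remaining methylation fell on the same cytosines in both libraries somewhat more often than independent calls would. For this, a call of Dnmt1 KO replicate 1 was paired with a call of replicate 2 at the same cytosine, on the other strand of the CpG, or at a CpG some distance away, and the share of pairs with both calls methylated was divided by that given by independent calls (1 means independent). Calls of different libraries never come from the same DNA molecule. This measure, its limit of 5 calls per cytosine and the distances read from it were chosen after the data were seen. In sparse sequence, where control was evenly methylated, the ratio was 1.34 at the same cytosine over 1170266 pairs of calls. A cytosine methylated in replicate 1 was methylated in 32.5% of the calls of replicate 2, and an unmethylated one in 21.7%. The other strand of the same CpG gave 1.23, a CpG 2 to 10 bp away 1.18 and one 1 to 2 kb away 1.08. In control the ratio was 1.03 at the same cytosine and 1.01 at 1 to 2 kb, but at control levels of 82.1% and 79.7% it cannot rise far above 1, so the values of the genotypes cannot be set against each other directly.

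With distance the ratio in Dnmt1 KO did not fall evenly but rose and fell several times. It was 1.05 for CpGs 81 to 90 bp apart, 1.18 at 171 to 180 bp, 1.06 at 281 to 290 bp and 1.15 at 351 to 360 bp. Further maxima stood at 551 to 560 bp (1.14) and 731 to 740 bp (1.13), with minima between them at 461 to 470 bp (1.07) and 631 to 640 bp (1.07). The methylation level of the CpGs in these pairs moved with it, 23.6% at 81 to 90 bp and 27.9% at 171 to 180 bp. The control level moved in the same phase over a smaller range, 81.4% at 91 to 100 bp, 83.2% at 171 to 180 bp, 81.6% at 271 to 280 bp and 82.9% at 361 to 370 bp, so this spacing was seen in both genotypes. At day 11, in separate libraries, Dnmt1 KO had maxima at 181 to 190, 361 to 370, 541 to 550 and 731 to 740 bp. Extremes of both days were the highest or lowest bin within preset ranges of distance, so their number and approximate places followed from those ranges. The control ratio had extremes between 1.01 and 1.02 at day 9 and between 1.01 and 1.03 at day 11. Nucleosomes and chromatin were not measured in these libraries, and a cause was not tested. With a limit of 20 calls per cytosine the ratios in sparse sequence at the same cytosine (1.34) and at 51 to 100 bp (1.08) were nearly the same. In all sequence, where islands low in both genotypes enter, that limit moved the ratio at 2 to 10 bp from 1.37 to 1.48.

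**Figure D4:**
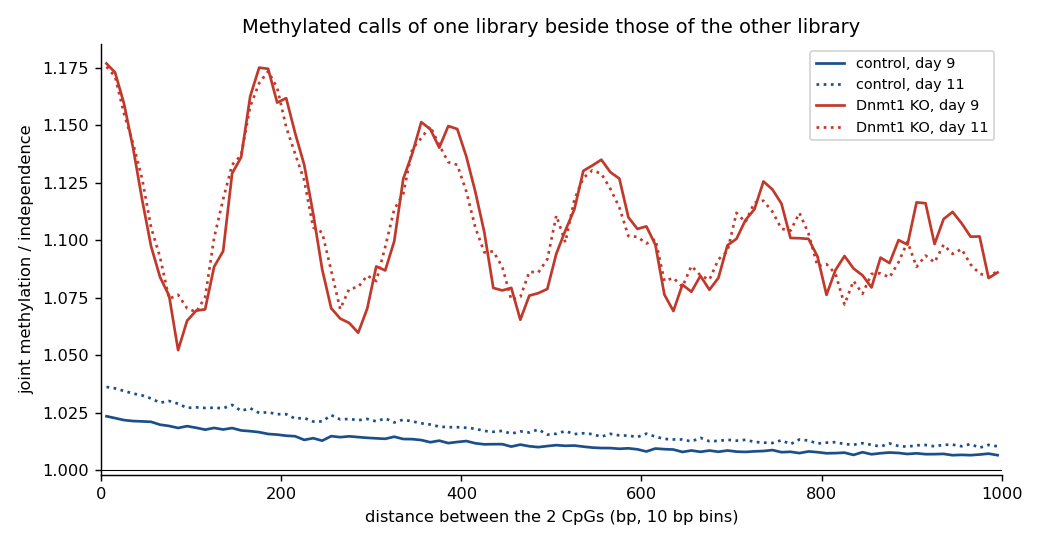
Joint methylation of calls from the 2 libraries of a genotype and day, divided by the value for independent calls, against the distance between the CpGs (bp, bins of 10 bp) in sparse sequence. Dnmt1 KO at days 9 and 11 rises and falls with maxima near 171 to 190 and 351 to 370 bp, and control stays close to 1.

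Gene bodies (from 1 kb after the start to the end) were tested in the same way. Of 11156 bodies tested, 904 were above the autosomal kept share (8.1%) and 576 below (5.16%), with a median of 32.9%. Without Dnmt1 KO replicate 1 the counts were 282 and 247, and without Dnmt1 KO replicate 2 they were 427 and 276. With limma on log2 levels they were 1283 and 1125. On the autosomes, 882 of 902 above and 523 of 541 below were on the same side at day 11. The share of all bodies on the same side was not counted. Over all autosomal bodies the log2 ratios of the days correlated at rho 0.55, against 0.85 for 100 kb tiles. Those of pairs of libraries with the same number correlated at 0.42, against 0.74.

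Of the 6 protein-coding autosomal bodies with the highest kept share among those called, Plxnd1 (a receptor of semaphorins) had 75.5% and 66.3% in control and 42.4% and 44.0% in Dnmt1 KO, a kept share of 60.9%, and still 43.5% at day 11. Piwil1, a germline protein that binds small RNAs against transposons, had 81.3% and 77.3% in control and 46.6% and 48.3% in Dnmt1 KO (59.8% kept, 43.9% at day 11), and Dyrk2, a protein kinase, kept 59.0% (36% at day 11). The other bodies, Hhipl1 with 63.6%, Asl (argininosuccinate lyase) with 60.5% and Slc4a1 (the anion exchanger of red cells) with 60.1%, kept 22.5% to 32.1% at day 11. This is on the other side of the autosomal value but within 2 SE of it. Each of the 6 but Plxnd1 lost significance without Dnmt1 KO replicate 1, with adjusted p from 0.0757 (Piwil1) to 0.519 (Hhipl1).

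Of the 6 protein-coding autosomal bodies with the lowest kept share among those called, Gabrg1, a subunit of the GABA-A receptor, had 86.5% and 77.5% in control and 8.70% and 6.36% in Dnmt1 KO, a kept share of 9.19% with 12.1% at day 11. Tecrl kept 9.61%, and Sycp2, a protein of the synaptonemal complex of meiosis, 9.80% (18.4%). Gm10545 kept 7.96% (15.7%). Lrfn1, a synaptic adhesion protein, and 4930444A02Rik kept 10.1% each at day 9 and 44.3% and 47.5% at day 11, the opposite side. Their mean control levels went from 62.4% and 76.6% at day 9 to 44.9% and 55.3% at day 11. Those in Dnmt1 KO went from 6.32% and 7.73% to 19.9% and 26.2%. Lrfn1 was then within 2 SE of the autosomal value. Of these 6, Lrfn1, 4930444A02Rik, Sycp2 and Gm10545 lost significance without Dnmt1 KO replicate 1. The 12 bodies held 59 to 273 calls per library.

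Among genes that act on methylation itself, 1 of 10 tested bodies was above the autosomal kept share and 0 below, which is near the shares of 8.1% and 5.16% over all bodies. The body above was that of Tet3, which oxidises methylated cytosine, with 85.7% and 80.7% in control and 33.6% and 40.1% in Dnmt1 KO, 44.3% kept (adjusted p = 0.00756, quasi-binomial model, over all bodies). Dnmt3a, one of the enzymes that write methylation anew, had 39.6% kept (adjusted p = 0.185). Of 16 tested genes of transposon silencing and RNA interference, 2 were above and 0 below, again not far from 8.1% and 5.16%, so the genes below are named for themselves and not for the list. Dicer1, which cuts double-stranded RNA into small RNAs, had 88.8% and 85.2% in control and 37.6% and 38.7% in Dnmt1 KO (43.8% kept, adjusted p = 0.00531). Drosha, which cuts microRNA precursors in the nucleus, had 76.8% and 74.1% against 29.7% and 30.4% (39.8% kept, adjusted p = 0.0443). The lowest of this list were Ezh2 and Eed, subunits of a Polycomb repressive complex, with 25.2% and 20.5% kept (adjusted p = 0.210 and 0.278). Of 5 pluripotency genes tested, 0 passed in either direction.

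Gene families are described by their levels over all their CpGs, and by their bodies called beside 8.1% above and 5.16% below over all bodies, whose median was 32.9%. The families and lists were also among the 74 classes, but since they were chosen with results known, no p is given for them. Olfactory receptors (Olfr, clustered genes expressed in the nose) had 83.4% and 81.4% in control and 17.3% and 19% in Dnmt1 KO, 22.0% kept. Vomeronasal receptors (Vmn1r and Vmn2r) had 80.1% and 77.7% against 13.6% and 15.1%, 18.2% kept, and 7 of 18 tested bodies were below the autosomal value and 0 above. The lowest of them, Vmn2r59, had 84.3% and 82.1% in control and 8.75% and 8.60% in Dnmt1 KO (10.4% kept, and 10.6% at day 11). Genes of these receptor families resemble each other, so reads of near copies may be placed at the wrong one. Bodies of only 18 of 320 vomeronasal and 2 of 1087 olfactory receptor genes had enough calls and control methylation to be tested. A low kept share was not particular to these families, since the 100 kb tiles with the least GC had a median of 18.9%. The families were not compared with other sequence of like GC. Clustered protocadherins, adhesion proteins of neurons, had 50.4% and 52.0% against 10.3% and 9.97%, 19.8% kept. Zinc finger proteins (Zfp) kept 33.9%, with 6 of 137 bodies above, led by Zfp827 with 47.1%, and 2 below. Genes that every cell uses (subunits of the proteasome, RNA polymerase II, translation factors and the like) kept 33.6%, with 3 of 92 above and 1 below.

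Part of an exon of Vmn2r59 and of Dicer1 is shown as an example of a gene below and a gene above the autosomal kept share that differ in their CpGs, which are in capitals. Both are the middle 150 bases of the longest coding exon, on the minus strand.
Vmn2r59, chr7:49267557-49267706: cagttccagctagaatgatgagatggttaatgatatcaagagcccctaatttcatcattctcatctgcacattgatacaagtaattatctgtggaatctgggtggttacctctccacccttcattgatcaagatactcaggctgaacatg
Dicer1, chr12:105934844-105934993: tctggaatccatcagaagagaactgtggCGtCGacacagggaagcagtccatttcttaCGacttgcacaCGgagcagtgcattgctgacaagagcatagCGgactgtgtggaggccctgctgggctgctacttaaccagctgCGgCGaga
The stretch of Vmn2r59 holds 0 CpGs at 40.7% GC, and that of Dicer1 holds 7 at 55.3% GC. They are single stretches and not a measure of the whole genes.

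**Figure D5:**
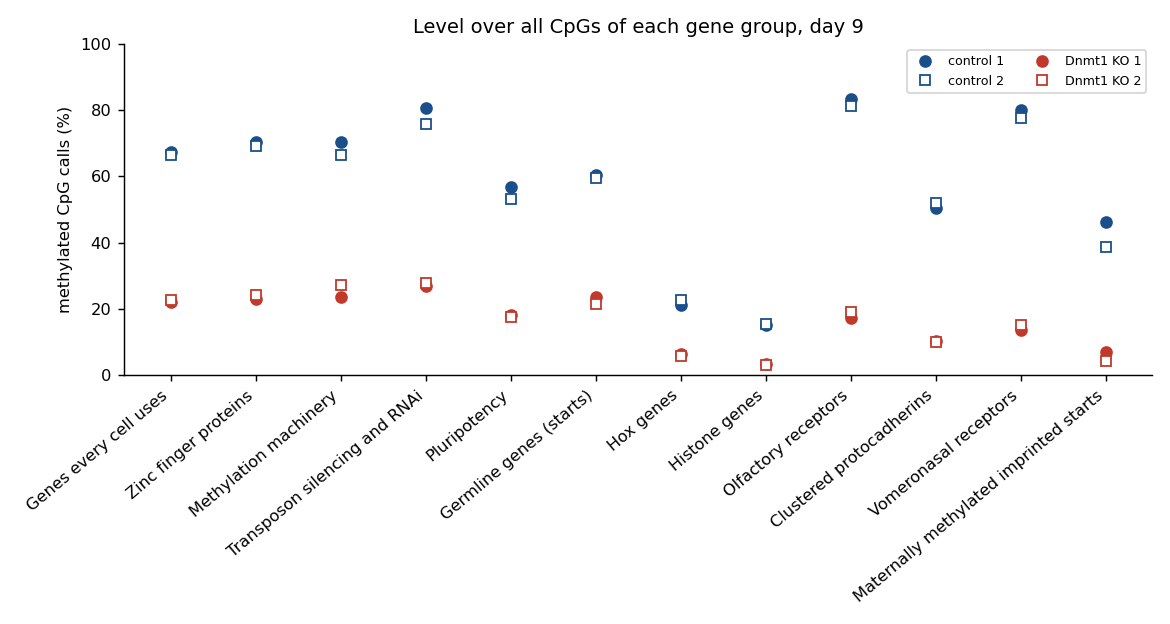
Methylated CpG calls (%) in each of the 4 libraries of day 9 over all CpGs of each gene group, or over 2 kb around the starts for the germline and imprinted groups. Imprinted starts go from 46.2% and 38.6% to 6.91% and 4.26%, and vomeronasal receptors from 80.1% and 77.7% to 13.6% and 15.1%.

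Gene starts listed as maternally methylated had few methylated calls left in Dnmt1 KO. An imprint of this kind is set in the egg, lies on the maternal copy only, and is carried through cell divisions by maintenance methylation. Some starts of the list were low in control too, such as Gnas (2.44% and 0%), Mcts2 (5.88% and 8.89%) and Igf2r (17.9% and 8.33%). Others were higher than a mark on 1 copy alone would give. Mest and Snrpn had 100% in both control libraries, on 3 to 8 calls, and Nnat had 89.7% and 92.3%. The 2 kb counted at each gene lie around its outermost annotated start, and held 8 CpGs at Snrpn and 18 at Mest, against 105 at Plagl1. Whether they cover the imprinted region of each gene was not checked. The values of the list are therefore not those of imprints alone. Over 2 kb around its 16 starts, 288 of 623 and 181 of 469 calls were methylated in control (46.2% and 38.6%), and 21 of 304 and 11 of 258 in Dnmt1 KO (6.91% and 4.26%). This is a kept share of 13.2% and a log2 ratio of -1.34, which was -0.74 at day 11. Of the 16 starts, 8 had 0 methylated calls in both Dnmt1 KO libraries, among them 6 of the 12 with at least 5 calls in every library. The 8 include Mcts2, low in control, and Snrpn, with 1 and 2 calls in Dnmt1 KO, so 0 shows little in either. At day 11, 6 of the 8 had methylated calls in Dnmt1 KO, among them Mcts2, Snrpn and Peg10 with 45% to 69.3% kept, and Zrsr1 and Nespas had none, the latter with none in control either. Of 26 starts of germline genes, which are silenced by methylation in other cells, 1 had none, Stra8, on 8 and 7 calls, and this difference between the lists was not tested. The autosomal germline starts together had 60.5% and 59.6% methylated calls in control and 23.6% and 21.6% in Dnmt1 KO, 37.6% kept. Fibroblast-marker starts went from 35.2% and 14.7% to 2.13% and 3.92%, 12.1% kept (log2 ratio -1.36, and -0.03 at day 11). Among them Vim, Postn, Col1a2 and Col1a1 had 0 methylated calls in both Dnmt1 KO libraries. A low kept share was therefore not particular to the imprinted list. Stem cell and trophoblast marker starts kept 38.4% and 47.4%, on as few as 70 and 27 calls in a library. Their Dnmt1 KO levels were 7.26% and 1.43%, and 7.41% and 2.13%. With log2 ratios of -0.19 (SE 0.88) and 0.28 (SE 1.66), neither set can be told apart from the autosomal value.

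At Peg3, a zinc finger gene expressed from the paternal copy, 47.5% and 29.7% of calls were methylated in control and 0 of 53 and 0 of 15 in Dnmt1 KO, which allows up to 5.66% and 20% there. At day 11 its mean levels were 46.4% and 1.82%. At Peg10, a gene derived from a retrotransposon, the levels were 62.1% and 66.7% in control and 0 of 16 and 0 of 36 in Dnmt1 KO, which allows up to 18.8% and 8.33%. At day 11 Peg10 had 30.8% in control and 15.1% in Dnmt1 KO, 49.1% kept, above the autosomal share of that day, so the absence of methylated calls did not recur there. At Plagl1, a zinc finger transcription factor, they were 95.5% and 45.5% in control and 0 of 5 and 0 of 22 in Dnmt1 KO, which allows up to 60% and 13.6%. At day 11 the mean levels of Plagl1 were 66.0% and 5.41%. Nnat, a small membrane protein of neurons, differed from these, with 89.7% and 92.3% in control and 27.3% and 33.3% in Dnmt1 KO, a kept share of 33.3%. Its Dnmt1 KO levels came from 44 and 6 calls. The start of Gnas was low in all 4 libraries, at 0% to 4%. Starts held 0 to 102 calls per library, several of them from single reads, so the value of a single start is imprecise.

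The 150 bases before the start of Peg3 and Plagl1 are shown because no methylated call was left around them in Dnmt1 KO although both hold several CpGs (capitals).
Peg3, chr7:6683133-6683282, minus strand: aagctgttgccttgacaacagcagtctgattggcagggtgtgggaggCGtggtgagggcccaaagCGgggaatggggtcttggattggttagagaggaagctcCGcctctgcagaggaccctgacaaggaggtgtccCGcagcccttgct
Plagl1, chr10:12810347-12810496, plus strand: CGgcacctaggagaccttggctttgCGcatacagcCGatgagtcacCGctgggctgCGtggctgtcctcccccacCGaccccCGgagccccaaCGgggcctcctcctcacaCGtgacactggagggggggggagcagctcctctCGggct
Peg3 has 4 CpGs at 60% GC in this stretch and Plagl1 10 at 69.3% GC.

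The bodies of the same imprinted genes kept 13.7% to 46.1%, and their difference from the starts was not tested. Of 11 tested, 0 were above the autosomal kept share (8.1% over all bodies) and 2 below (5.16% over all bodies), Snrpn with 17.2% kept (76.0% and 74.0% in control, 13.6% and 12.2% in Dnmt1 KO) and Mest with 13.7% (80.9% and 83.5%, against 10.9% and 11.6%). Whether these bodies take in an imprinted region was not checked. The body of Peg3, whose start had 0 methylated calls, had 30.4% and 44.2% in Dnmt1 KO against 77.3% and 84.6% in control. It kept 46.1% (adjusted p = 0.201) and 33.5% at day 11. Slc38a4 kept 41.2% (adjusted p = 0.0749). Among germline genes, Tdrd1 was above with 44.8% (adjusted p = 0.0249) and Sycp2, already named, below.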

How the data were processed

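Libraries of mouse ESCs were whole-genome bisulfite libraries. Groups, days and replicate numbers came from the labels. According to their methods the authors trimmed paired reads, aligned them with Bismark to NCBIM37, removed duplicates and extracted CpG calls, and the submitters' processing notes give Bismark 0.12.3 whereas the methods name a later version. The deposited tables held, per cytosine and strand, counts of methylated and unmethylated calls, with no normalization, and a deposited percent, which was not used further. Libraries held 7190722 to 10142985 calls at day 9. Intervals and limits from counts cover counting error only.

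Calls were summed over tiles, gene bodies (GENCODE models of NCBIM37), CpG classes and flanking bases with Python 3.11.15. Tiles needed at least 10 (10 kb) or 100 (100 kb) calls in each library of day 9, bodies 50. Kept shares were tested where pooled control of days 1, 3 and 6 was at least 50%. For tiles and bodies a quasi-binomial model was fitted over all 18 libraries (R 4.3.3), 1 level per genotype and day, with the spread moderated by limma 3.58.1. Classes and contexts were tested with limma on log2 levels relative to the library's autosomal level. All p were Benjamini-Hochberg adjusted with a threshold of 0.05. In simulations, 50 features per size of change were altered independently of their neighbours, with an assumed spread between libraries. These were fewer than the features called in the data, so the shares found do not carry over directly. On simulated 100 kb tiles, the model found 84% of changes of -1 (log2), 18% of -0.5, 44% of 0.5 and 100% of 1, and 0.013% of unchanged tiles. In simulated contexts limma found 100% of changes of 0.2 in size and called 2.91% of unchanged contexts. Of changes of -1, -0.5, 0.5 and 1 it found 56%, 12%, 20% and 90% in simulated bodies, and 0%, 0%, 0% and 50% in simulated 10 kb tiles.

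The tiles, genes and contexts named were those of most extreme kept share among called ones (5 of each end for 100 kb tiles, 3 for 10 kb tiles, 6 for bodies, 4 for contexts), with both same-numbered pairs of libraries on the same side. Of each list, the rule gave the 2 highest and 2 lowest tested members, of which some are named. Drosha was named after its value was seen. Members and lists were chosen with earlier results of these data known. The main tests did not pair the samples by replicate number. Repeat classes were not analysed here, since the reference used marks none, and of 18 imprinted starts listed, 16 were found in the annotation.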

Additional observations from a re-analysis of the deposited data

How the results depend on the processing

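The autosomal difference and kept share kept their direction under the alternatives run for them. The counts of classes, contexts and strand pairs stayed within 1.5 times, but 9 of 61 called classes and 11 of 228 called contexts changed side without cytosines of over 20 calls, and so did GACGAC against its other strand (log2 difference 0.04, then -0.22). The counts of tiles and bodies moved further. With the minimum of calls doubled, 15120 tiles of 100 kb and 114136 of 10 kb were lower in Dnmt1 KO, since fewer tiles were tested. Of 100 kb tiles, 1035 were then above and 410 below the autosomal kept share, and 4920 and 2881 when scaled to the median tile. Leaving out 1 library gave 331 to 1701 above and 1188 to 5383 below, the lowest without Dnmt1 KO replicate 1.

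For 10 kb tiles above, the counts were 716 without cytosines of over 20 calls, 216 with doubled calls, 1100 with the spread from the 4 libraries of day 9, 1299 with limma, 107 with no filter on control level, 3428 scaled to the median and 14 to 351 leaving out 1 library. For those below they were 16 with doubled calls, 460 with the 4 libraries, 8386 with limma, 11 with no filter, 212 scaled to the median and 3 to 62 leaving out 1 library. Bodies above were 282 to 847 and below 247 to 563 leaving out 1 library, and 1125 were below with limma. These causes were not tested.

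Libraries with the same replicate number did not deviate together at day 9 (r = -0.003 over 100 kb tiles). Counting error lowers such a correlation, so this value cannot show that the libraries were unpaired. With a replicate block, 1003 tiles of 10 kb were above and 5 below, and of 100 kb tiles 2071 and 4672.

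Of the 36 named tiles, bodies and contexts, 6 were on the other side at day 11 (log2 ratio), Rgnef at -0.66, Hhipl1 at -0.56, Asl at -0.085, Slc4a1 at -0.088, Lrfn1 at 0.37 and 4930444A02Rik at 0.47. Of these 6, only 4930444A02Rik lay more than 2 SE from the autosomal value. Another 7 kept their side there, within 2 SE of the autosomal value. Without Dnmt1 KO replicate 1, 16 lost significance, and without Dnmt1 KO replicate 2, 10 did. Leaving out control replicate 1 or 2 ended 4 and 2 of these calls, no filter on control level 5, limma on log2 levels 1, and the replicate block 3, the lowest 10 kb tiles (adjusted p = 0.585 to 0.61). With the minimum of calls doubled, only 11 of the named tiles and bodies were still tested, and these kept their calls. The restriction of contexts to sparse sequence and the pairs of calls, with their limit and distances, were chosen after seeing the data. The 1.2 to 1.24 calls per cytosine limit all values to sums over many CpGs.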
